A study of Homo sapiens with 2 samples.

Results

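FAIRE-seq peaks were examined at 47 genes of drug and bile acid metabolism, a set that holds cytochrome P450 (CYP) enzymes, conjugating enzymes, dehydrogenases, transporters and the enzymes that join bile acids to amino acids. The genes were chosen by name, but with earlier results of these data known, so the set was not blind to the peaks. A peak was taken as theirs when the deposited annotation gave one of these names as the gene with the nearest transcription start site (TSS). Of 56159 listed peaks, 134 met this rule, which is 0.239% of the total. They named 34 of the 47 genes, and 13 genes had no peak in any list.

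Hepatocytes clear drugs in steps. CYP enzymes, which draw electrons from the reductase POR, oxidise a compound, transferases of the UGT, SULT and GST families attach a polar group, and ABC transporters export the product into bile or blood. The same cells make bile acids from cholesterol through CYP7A1, CYP8B1, CYP27A1 and CYP7B1, and the nuclear receptors FXR, PXR and CAR are known to control many of these genes in liver.

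The FAIRE method, short for formaldehyde-assisted isolation of regulatory elements, recovers the DNA that formaldehyde has not tied to protein, and so samples open chromatin. All cells were HepG2, an established line from a human liver tumour. Control cells had received lentivirus with a scrambled small hairpin RNA, and NR2E3-depleted cells lentivirus with a small hairpin RNA against the orphan nuclear receptor NR2E3. The sources name the depleted cells as the second of the study's depleted HepG2 populations (KO II), and do not say whether a single clone was sequenced. Each group had 1 library, so no difference between the groups could be tested, and the intervals given are 95% intervals of counting error alone. Intervals over peaks treat each peak as independent, although peaks named for the same gene lie near each other. Such intervals can be too narrow. In a bulk library, a site open in part of the cells and a site partly open in all cells cannot be told apart.

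The peaks were deposited as 3 lists. A total of 14368 peaks were common to both libraries, 16236 were specific to the control library and 25555 to the NR2E3-depleted library. Each peak carries a score that is a scaled number of sequenced tags. The score of 1 tag was 0.407 in the common and control-specific lists and 0.507 in the depleted-specific list, so each score below was also converted into tags. The common list therefore holds control values, and the value of a peak in the library that did not list it was not analysed here. The median peak had 16 tags in the common list, 14 in the control-specific list and 12 in the depleted-specific list, and the Poisson interval for 12 tags ran from 6.20 to 20.96. A single peak of this height was measured with low precision. As a check of the cell type, 7 of 10 hepatocyte genes had a promoter peak, among them APOA1, APOB and HNF4A. For blood or stromal genes it was 0 of 4, and for all protein-coding genes 28.0%. ALB, AFP and TTR had no promoter peak. A peak of any class was listed for 9 of the 10 hepatocyte genes and for 2 of the 4 blood or stromal genes.

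At the level of genes, peaks of any class were frequent at the drug and bile acid genes, but promoter peaks were not. The 34 genes with a peak made up 72.3% of the set (57.4% to 84.4%), and 51.4% of all 20052 protein-coding genes had a peak. Of 130 other protein-coding genes of the same pathways, 70% had one (61.3% to 77.7%). In the common list, 25 of 47 genes had a peak (53.2%, 38.1% to 67.9%), against 26.7% of protein-coding genes. A control-specific peak was found for 17 genes (36.2%, 22.7% to 51.5%), against 21.0%, and a depleted-specific peak for 21 genes (44.7%, 30.2% to 59.9%), against 36.1%. For the other pathway genes the shares in the common, control-specific and depleted-specific lists were 36.9% (28.6% to 45.8%), 33.1% and 50%. A promoter peak in any list was found for 10 genes (21.3%, 10.7% to 35.7%), a share below the 28.0% of protein-coding genes but with an interval that includes it. Of the other pathway genes, 23.85% had a promoter peak. The shares with any peak and with a promoter peak were thus close to those of the other pathway genes.

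**Figure D1:**
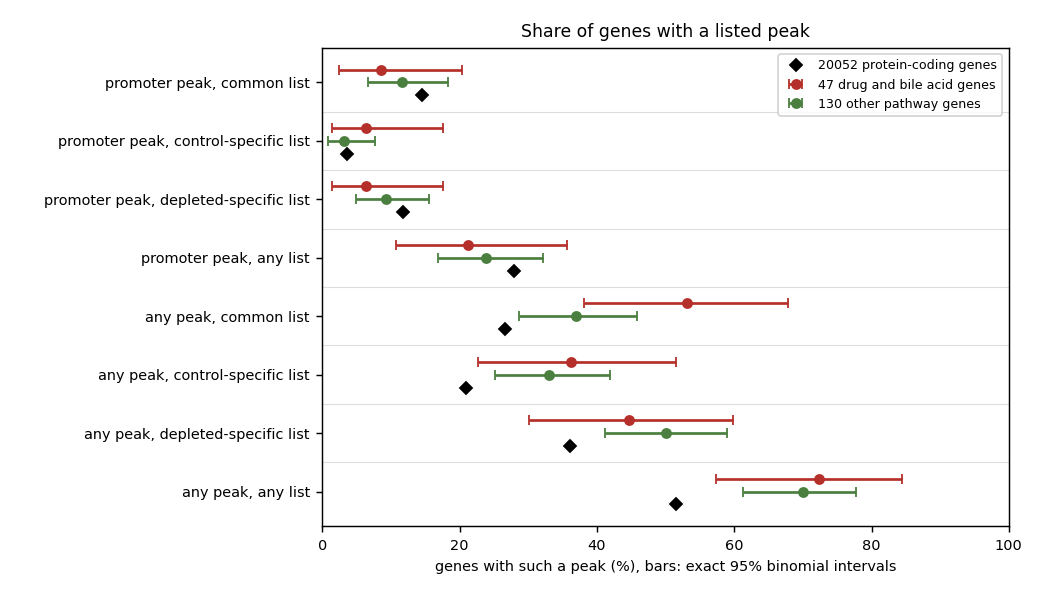
Share of genes with a listed peak (x axis, %), for 8 kinds of peak (y axis). Circles are the 47 drug and bile acid genes and 130 other genes of the same pathways with exact 95% binomial intervals, and diamonds are all 20052 protein-coding genes. For peaks of any class in the common list the drug and bile acid genes stand at 53.2%, the other pathway genes at 36.9% and all genes at 26.7%. For promoter peaks in any list the values are 21.3%, 23.85% and 28.0%.

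Of the 134 peaks, 43 were common, 36 control-specific and 55 depleted-specific. The promoter class of the deposited annotation held 11 of them (8.21%, 4.17% to 14.2%), and 123 were distal. Among all listed peaks the promoter class held 12.8%. The share was 11.6% of the common peaks of these genes (3.89% to 25.1%) against 23.98% of all common peaks. It was 8.33% of their control-specific peaks (1.75% to 22.5%) against 5.54%, and 5.45% of their depleted-specific peaks (1.14% to 15.1%) against 11.1%. The last interval includes the value for all depleted-specific peaks, and the interval of the common peaks includes that of all common peaks as well. In 85 cases the distance to the TSS was over 10 kb (63.4%, 54.7% to 71.6%), close to the 64.6% of all listed peaks. A distance over 50 kb was less frequent, with 14 peaks (10.4%, 5.83% to 16.9%) against 30.4% of all. The median distance was 14.5 kb, against 21.2 kb over all peaks. Of the 134 peaks, 70 lay outside the RefSeq span of the named gene (52.2%, 43.4% to 60.9%), against 56.5% of all peaks named for protein-coding genes. For 15 peaks the annotation named a transcript other than that of the nearest gene.

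**Figure D2:**
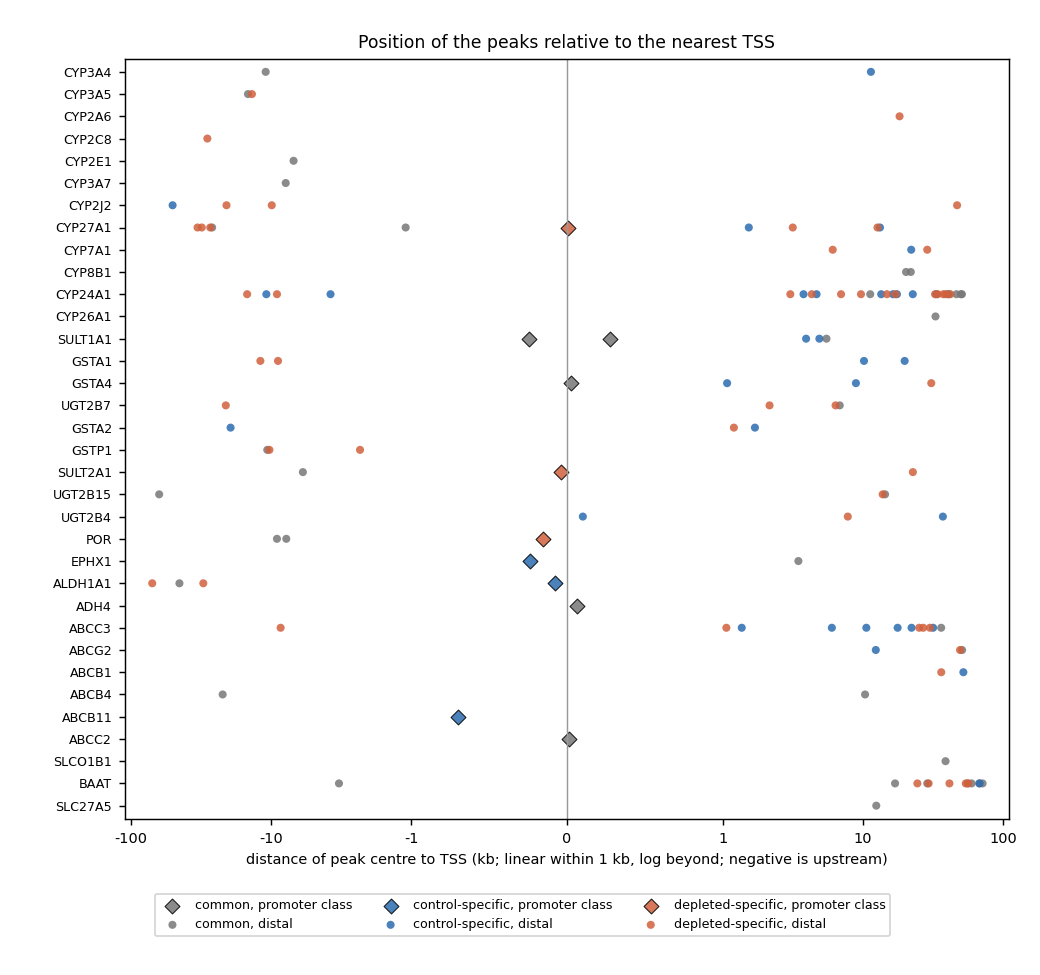
Distance of each of the 134 peaks to the nearest TSS (x axis, kb, linear within 1 kb and logarithmic beyond) for the 34 genes with a peak (y axis). Diamonds are promoter-class peaks, circles distal peaks, and colours the 3 lists. The 11 promoter-class peaks fall at 10 genes, and 85 peaks lie over 10 kb from the TSS.

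A few genes held many of the peaks. The 5 with the most, CYP24A1 (28 peaks), BAAT (13), ABCC3 (12), CYP27A1 (10) and SULT1A1 (5), held 68 of the 134 peaks (50.7%). The other 29 genes with a peak held 66, at most 4 each, and 10 genes had exactly 1 peak (21.3%), against 23.3% of protein-coding genes. Peaks in all 3 lists were found for 7 genes, CYP27A1, CYP24A1, GSTA4, ALDH1A1, ABCC3, ABCG2 and BAAT. These were 14.9% of the set (6.20% to 28.3%), against 9.24% of protein-coding genes. Common peaks alone were found for 9 genes, which include CYP2E1, CYP8B1, ABCB4, ABCC2 and SLC27A5. Their share was 19.1% (9.15% to 33.3%), against 8.87%. ABCB11 was the 1 gene with control-specific peaks alone, and CYP2A6 and CYP2C8 had depleted-specific peaks alone, each of these genes through 1 peak. The shares were 2.13% (0.0539% to 11.3%) against 4.20% of protein-coding genes for control-specific peaks alone, and 4.26% (0.520% to 14.5%) against 15.3% for depleted-specific peaks alone.

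**Figure D3:**
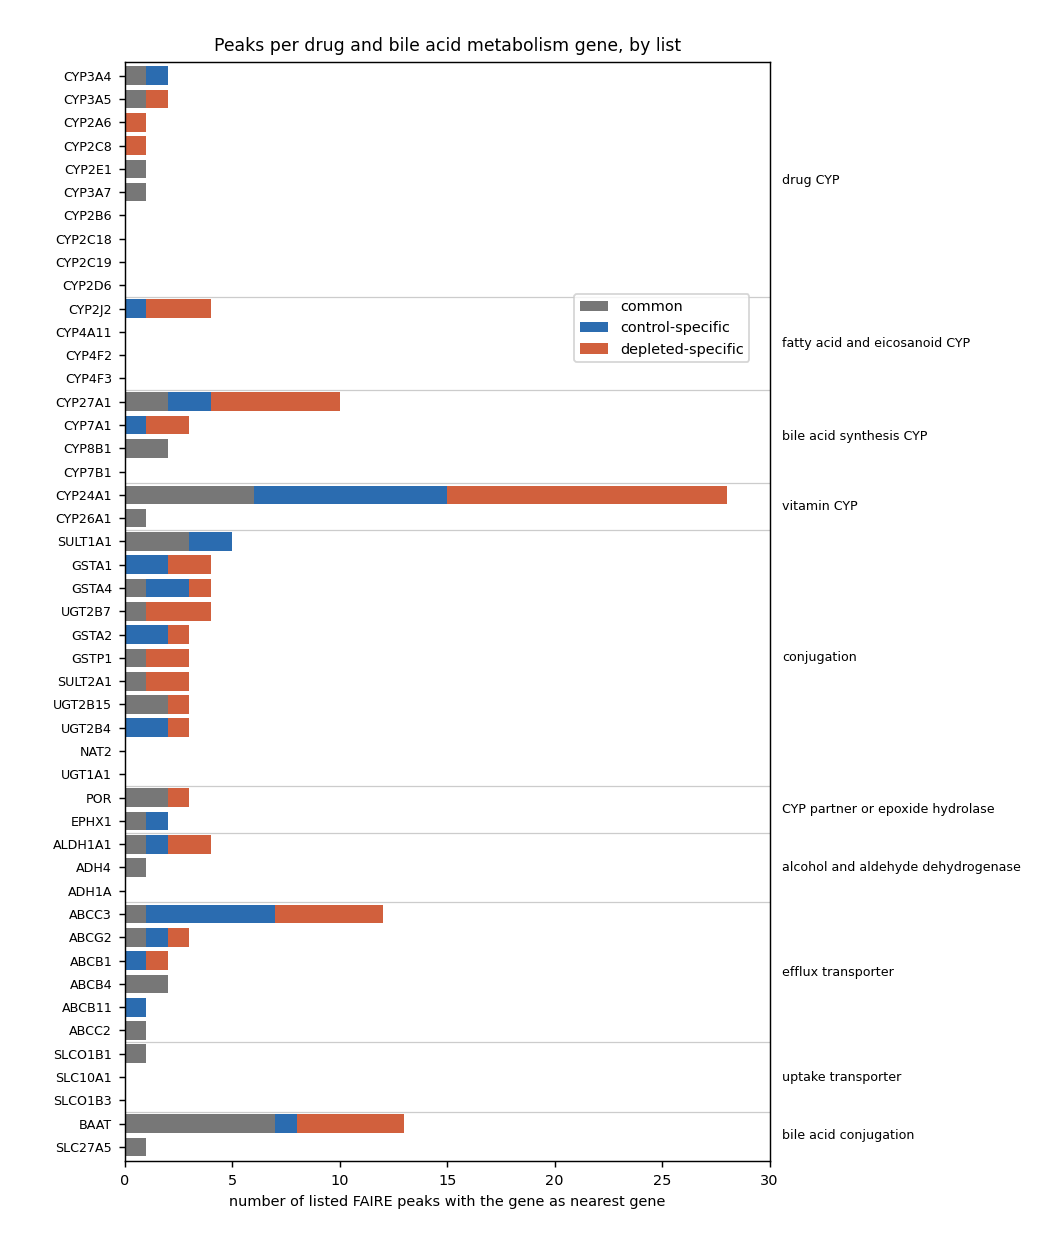
Number of listed peaks (x axis) for each of the 47 genes (y axis), grouped by role, with common, control-specific and depleted-specific peaks stacked. CYP24A1 has 28 peaks, BAAT 13, ABCC3 12 and CYP27A1 10, every other gene has at most 5, and 13 genes have none.

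Promoter peaks were divided over the lists as 5 common peaks at 4 genes, 3 control-specific peaks at 3 genes and 3 depleted-specific peaks at 3 genes. The 4 genes with a common promoter peak were 8.51% of the set (2.37% to 20.4%), against 14.5% of protein-coding genes. The 3 genes in the control-specific list were 6.38% (1.34% to 17.5%), against 3.64%, and the 3 in the depleted-specific list were likewise 6.38%, against 11.7%. All of these intervals include the value for protein-coding genes.

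The depleted-specific promoter peaks were at SULT2A1, POR and CYP27A1. SULT2A1, which sulfates steroids and bile acids, had its peak on chromosome 19 (chr19:47886205-47886505, hg38), with the centre at -40 bp from the TSS (upstream), a score of 7.60 and 15 tags (8.40 to 24.7). The nearest peak of the control library was 5865 bp away, a common peak of 21 tags. POR, the electron donor of microsomal CYP enzymes, had its peak at chr7:75914855-75915155, -150 bp from the TSS, with 15 tags. The annotation took this promoter from the transcript of the microRNA MIR4651, so the peak cannot be assigned to POR alone. CYP27A1, a mitochondrial sterol hydroxylase of bile acid synthesis, had its peak at chr2:218782007-218782307, 10 bp downstream of the TSS, with 11 tags (5.49 to 19.7). A common peak of 20 tags lay 1102 bp upstream of it, so the start of CYP27A1 had a peak nearby in both libraries.

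The control-specific promoter peaks were at EPHX1, ABCB11 and ALDH1A1. EPHX1, the microsomal epoxide hydrolase, had its peak at chr1:225824968-225825268, -236 bp from a TSS inside the RefSeq span of the gene, with 15 tags (8.40 to 24.7). A taller common peak of 29 tags (19.4 to 41.7) lay in intron 1 of the longer EPHX1 transcript. ABCB11, the bile salt export pump, had its peak at chr2:169031870-169032170, -696 bp from the TSS, with 13 tags (6.92 to 22.2). The nearest peak of the NR2E3-depleted library was 70181 bp away. ALDH1A1, which oxidises retinal to retinoic acid, had its peak at chr9:72952978-72953278, -75 bp from the TSS, with 13 tags, and the nearest peak of the other library lay 30223 bp away. All 6 specific promoter peaks had between 11 and 15 tags, and the tags at none of these promoters were compared between the libraries.

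The common promoter peaks were at GSTA4, ABCC2, ADH4 and SULT1A1. GSTA4, a glutathione transferase for lipid aldehydes, had 23 control tags (14.6 to 34.5) at chr6:52995107-52995407, 27 bp downstream of the TSS. ABCC2, which exports conjugates into bile, had 20 tags (12.2 to 30.9) at chr10:99782502-99782802, 12 bp downstream. ADH4, an alcohol dehydrogenase, had 14 tags at chr4:99144084-99144384, 64 bp downstream. SULT1A1, a phenol sulfotransferase, had 2 such peaks, with 16 tags at -244 bp and 13 tags 278 bp downstream. Common promoter peaks thus ran from 13 to 23 tags.

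The sequences under the promoter peaks show what kinds of promoters were listed. Each is read from hg38 on the strand of the gene, 5′ to 3′, over the 201 bases around the peak centre but ending at most 30 bases past the TSS. Capitals mark matches on either strand to GGGCGG (Sp1), CCAAT (NFY), AGGTCA (core element of many nuclear receptors), AAGTCA (core element of the NR2E receptors), GTTAAT (part of the HNF1 element) and TGTTTAC (FOXA). The first pair is depleted-specific, from chr19:47886285-47886455 (minus strand) and chr2:218782057-218782177 (plus strand).
SULT2A1: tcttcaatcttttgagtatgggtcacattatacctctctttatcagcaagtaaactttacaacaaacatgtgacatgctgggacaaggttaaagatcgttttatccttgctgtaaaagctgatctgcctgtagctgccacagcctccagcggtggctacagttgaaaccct
CYP27A1: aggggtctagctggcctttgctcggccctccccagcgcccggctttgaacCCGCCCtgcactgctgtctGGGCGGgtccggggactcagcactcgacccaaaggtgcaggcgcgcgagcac
The next 3 are control-specific, from chr1:225825018-225825218 (plus), chr2:169031920-169032120 (minus) and chr9:72953028-72953228 (minus).
EPHX1: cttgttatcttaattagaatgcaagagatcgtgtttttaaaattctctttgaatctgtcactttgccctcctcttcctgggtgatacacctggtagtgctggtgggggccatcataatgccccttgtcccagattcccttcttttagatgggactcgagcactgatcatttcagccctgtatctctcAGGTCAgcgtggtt
ABCB11: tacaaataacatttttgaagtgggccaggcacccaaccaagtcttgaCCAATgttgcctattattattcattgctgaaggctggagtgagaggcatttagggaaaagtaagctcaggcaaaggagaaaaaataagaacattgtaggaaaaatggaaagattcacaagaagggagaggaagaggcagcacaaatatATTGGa
ALDH1A1: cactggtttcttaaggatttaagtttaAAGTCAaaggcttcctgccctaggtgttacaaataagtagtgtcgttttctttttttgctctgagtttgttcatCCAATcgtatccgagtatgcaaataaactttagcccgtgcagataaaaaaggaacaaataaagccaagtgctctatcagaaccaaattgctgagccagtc
The last 3 are common, from chr6:52995254-52995357 (minus), chr10:99782552-99782670 (plus) and chr4:99144268-99144334 (minus).
GSTA4: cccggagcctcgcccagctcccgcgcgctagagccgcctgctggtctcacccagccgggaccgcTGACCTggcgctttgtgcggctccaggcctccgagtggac
ABCC2: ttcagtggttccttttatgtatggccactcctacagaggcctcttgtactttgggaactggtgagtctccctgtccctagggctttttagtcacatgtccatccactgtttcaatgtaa
ADH4: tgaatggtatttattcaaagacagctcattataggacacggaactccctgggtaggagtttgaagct

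CYP27A1 held the letters GGGCGG at positions -40 (antisense) and -21 from the TSS. CCAAT lay at -74 in ALDH1A1 and at -749 and -601 in ABCB11, and AAGTCA at -148 in ALDH1A1. AGGTCA lay at -149 in EPHX1 and, antisense, at -9 in GSTA4. Further matches to AGGTCA lay past the printed part, at 47 bases downstream of the TSS in SULT2A1 and 73 in ABCC2. GTTAAT and TGTTTAC matched none of the 11 promoter windows. Both were rare over all promoter peaks too, with 3.27% and 2.02%, so their absence from 11 windows shows little. These are matches of letters and not measured binding.

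The promoter peaks of these genes were poorer in G and C than promoter peaks in general. The 11 windows of 201 bases had a median GC content of 44.3% (lowest 38.3%, highest 75.1%), against 62.7% over all 7183 promoter peaks. Under 50% GC were 7 of the 11 (63.6%, 30.8% to 89.1%), against 15.0% of all. ALDH1A1, ABCB11, ADH4, ABCC2, SULT2A1, EPHX1 and 1 SULT1A1 peak were in this group, whereas GSTA4 (64.7%), CYP27A1 (73.6%) and POR (75.1%) were rich in G and C. GGGCGG was found in 2 of the 11 windows (18.2%, 2.28% to 51.8%), against 53.8% of all promoter peaks. AGGTCA was found in 5 (45.5%, 16.7% to 76.6%), against 8.27%, and CCAAT in 4 (36.4%), against 36.5%. The intervals for the share under 50% GC, for GGGCGG and for AGGTCA leave out the value of all promoter peaks. They rest on 11 peaks, of which 2 share the gene SULT1A1. The compared promoter peaks were not matched for GC content, so the 3 departures are not separate results. All distal peaks, with a median GC content of 44.3%, held AGGTCA in 17.1% and GGGCGG in 4.45%. Both values lie inside the intervals of the 11 windows. The part of GC content in the motif shares was not tested. Distal peaks of these genes were close to all distal peaks. AGGTCA was found in 23 of 123 (18.7%, 12.2% to 26.7%) against 17.1%, GGGCGG in 3.25% against 4.45%, AAGTCA in 13.8% against 14.5%, CCAAT in 27.6% against 26.2%, GTTAAT in 4.88% against 7.96% and TGTTTAC in 5.69% against 4.67%.

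Of the 10 CYP enzymes of drug oxidation, 6 had a peak, beside the 51.4% of all protein-coding genes. None of the 10 had a promoter peak, beside 28.0% of all protein-coding genes. Their 8 peaks were 4 common, 1 control-specific and 3 depleted-specific ones. CYP3A4, the most used drug oxidase of adult liver, had a common peak of 13 tags at -10.9 kb and a control-specific peak of 14 tags in its intron 3 of 12. CYP3A5 had a common peak of 20 tags and a depleted-specific peak of 16 tags, with centres 921 bp apart, both in the last intron of the readthrough transcript CYP3A7-CYP3A51P. CYP3A7, the fetal form, had a common peak of 14 tags at -7.83 kb. Under the separate name CYP3A7-CYP3A51P, 2 further depleted-specific peaks of 15 tags each were listed, both in introns. CYP2E1, which oxidises ethanol, had a common peak of 14 tags at -6.88 kb. CYP2A6, which oxidises nicotine, had a depleted-specific peak of 19 tags (11.4 to 29.7) 18.3 kb downstream of its TSS. CYP2C8 had a depleted-specific peak of 11 tags at -28.4 kb. CYP2B6, CYP2C18, CYP2C19 and CYP2D6 had no peak.

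Of the 4 CYP enzymes of fatty acids and eicosanoids, 1 had peaks, beside 51.4% of all protein-coding genes. CYP2J2, an epoxygenase of arachidonic acid, had 3 depleted-specific peaks of 14, 12 and 11 tags and 1 control-specific peak of 13 tags, all classed as intergenic. Of these, 2 of the depleted-specific peaks lay inside the RefSeq span of CYP2J2, since the TSS behind the deposited annotation differs from the start of that span. CYP4A11, CYP4F2 and CYP4F3 had no peak.

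Bile acid synthesis genes had 15 peaks, 4 common, 3 control-specific and 8 depleted-specific, of which 10 were at CYP27A1. CYP7A1, the rate-limiting enzyme of the classic pathway, had 3 specific peaks and no common one. They were a depleted-specific peak of 12 tags in intron 4 of 5, a control-specific peak of 13 tags 22.2 kb downstream of the TSS, and a depleted-specific peak of 13 tags 28.8 kb downstream. No peak lay at its promoter. CYP8B1, which makes the precursors of cholic acid, had 2 common peaks of 19 and 15 tags, both in intron 2 of 2 of ACKR2, a neighbouring gene. CYP7B1, of the alternative pathway, had no peak. At CYP27A1, 2 peaks were common, 2 control-specific and 6 depleted-specific. The tallest, a common peak of 41 tags (29.4 to 55.6) at chr2:218755788-218756088, was the highest-scoring peak of the 47 genes. It lay at -26.2 kb, at the end of TTLL4. The depleted-specific peaks upstream of CYP27A1 lay in TTLL4 too, and had 9, 14 and 16 tags.

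CYP24A1, which inactivates vitamin D, held 28 peaks on chromosome 20, of which 6 were common, 9 came from the control-specific list and 13 from the depleted-specific list. None was in the promoter class, and the nearest to the TSS was 3.04 kb downstream of it, a depleted-specific peak of 13 tags. The common peaks were tallest beyond the end of the gene. Peaks of 32 and 28 tags lay 40.4 and 41.1 kb downstream of the TSS and one of 33 tags (22.7 to 46.3) 50.1 kb downstream. The highest depleted-specific score of the 47 genes was also here, 10.6 or 21 tags (13.0 to 32.1), 32.8 kb downstream at chr20:54141064-54141364. A control-specific peak of 12 tags lay 643 bp from it. Inside the gene, control-specific and depleted-specific peaks lay interspersed, and 2 pairs of them had centres 391 and 356 bp apart. CYP26A1, which clears retinoic acid, had 1 common peak of 19 tags, 33.0 kb downstream.

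**Figure D4:**
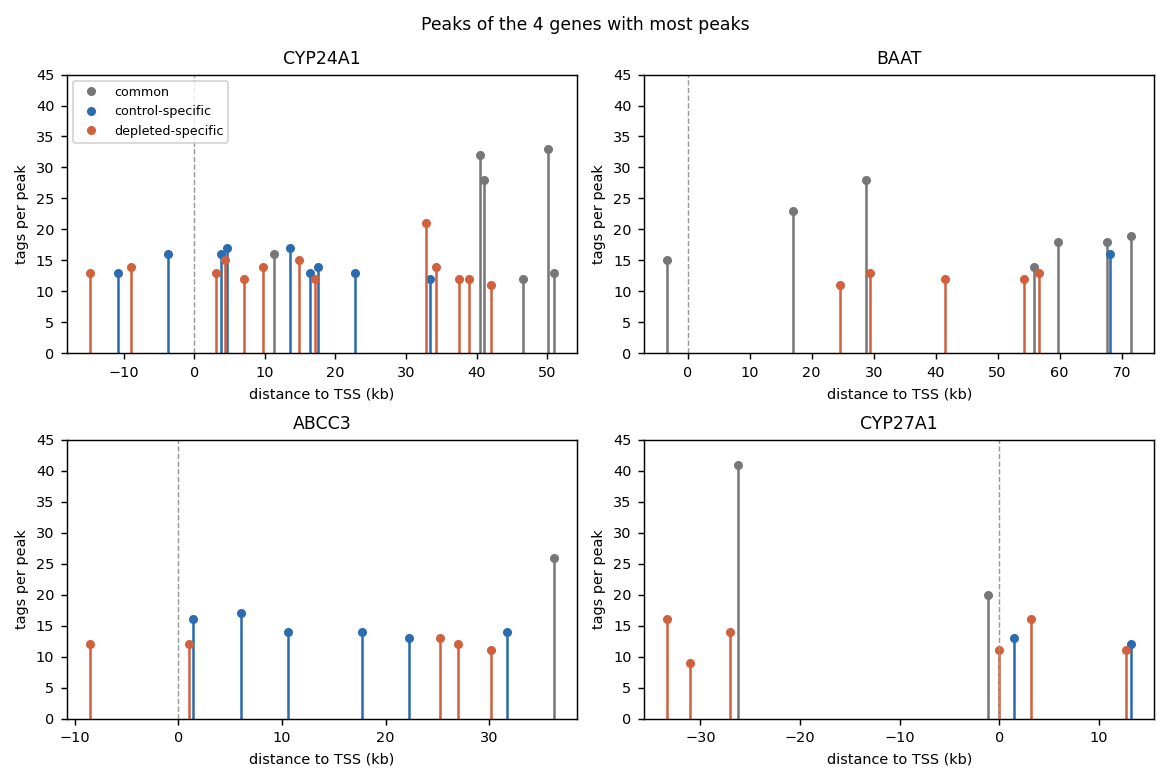
Tags per peak (y axis) against the distance to the TSS in kb (x axis, negative is upstream) for CYP24A1, BAAT, ABCC3 and CYP27A1. Each line is 1 peak, coloured by list, and tags of common peaks are those of the control library. The tallest peaks are common ones away from the TSS, 41 tags at CYP27A1, 33 at CYP24A1, 28 at BAAT and 26 at ABCC3.

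Of the 11 conjugating enzymes, 9 had a peak, beside 51.4% of all protein-coding genes. Their 32 peaks were 9 common, 10 control-specific and 13 depleted-specific ones. The UGT2B genes on chromosome 4, which glucuronidate steroids, bile acids and drugs, had 10 peaks, 3 common, 2 control-specific and 5 depleted-specific. UGT2B7 had 3 of the depleted-specific peaks, of 12, 13 and 14 tags, all inside the gene, and a common peak of 17 tags in intron 1. UGT2B4 had a control-specific peak of 16 tags in exon 1, classed as exonic although its centre was 103 bp downstream of a TSS. It also had a control-specific peak of 13 tags and a depleted-specific peak of 14 tags. UGT2B15 had common peaks of 16 and 23 tags and a depleted-specific peak of 12 tags, 560 bp from the nearer common one. The alpha-class GST genes on chromosome 6 had 11 peaks, 1 common, 6 control-specific and 4 depleted-specific. GSTA1 had 2 control-specific peaks of 14 and 12 tags and 2 depleted-specific peaks of 11 and 19 tags. In intron 1 of GSTA2, a control-specific peak of 15 tags and a depleted-specific peak of 12 tags lay 497 bp apart, and a control-specific peak of 13 tags lay at -19.4 kb. GSTA4 had 2 control-specific peaks of 15 and 16 tags beside its common promoter peak, and a depleted-specific peak of 12 tags.

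GSTP1, a glutathione transferase often raised in tumours, had depleted-specific peaks of 13 and 12 tags at -10.2 and -2.31 kb and a common peak of 13 tags at -10.6 kb. SULT2A1 had a depleted-specific peak of 14 tags 22.8 kb downstream besides its promoter peak. SULT1A1 had 3 common peaks and 2 control-specific peaks of 13 tags each. UGT1A1, the bilirubin transferase, had no peak, and neither had NAT2, an N-acetyltransferase. At the UGT1A locus, whose transcripts share their last exons with UGT1A1, single peaks were named for UGT1A3, UGT1A8, UGT1A9 (all depleted-specific, of 11, 15 and 12 tags) and UGT1A10 (control-specific, 13 tags). Genes of the CYP3A, UGT2B, GSTA and SULT1A families have close copies, and how the authors treated reads that fit several of them is not given in the sources used here.

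Of the dehydrogenases, ALDH1A1 had 2 depleted-specific peaks of 17 and 16 tags at -30.3 and -70.1 kb and a common peak of 17 tags at -44.9 kb, beside its control-specific promoter peak. ADH4 had its promoter peak alone, and ADH1A had no peak. POR had 2 common peaks of 18 and 21 tags at -9.04 and -7.76 kb, upstream of its depleted-specific promoter peak.

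All 6 efflux transporters had a peak, beside 51.4% of all protein-coding genes. Their 21 peaks were 5 common, 9 control-specific and 7 depleted-specific ones. ABCC3, which exports conjugates and bile acids into blood, held 12 of them, 1 common, 6 control-specific and 5 depleted-specific. The control-specific peaks had 13 to 17 tags and the depleted-specific peaks 11 to 13, and 11 of the 12 lay inside the gene. The 5 control-specific peaks nearest to the TSS lay from 1.37 to 22.3 kb downstream. A depleted-specific peak of 12 tags lay 306 bp from the first of these. ABCB1 (P-glycoprotein) had 1 control-specific peak of 15 tags in intron 16 and 1 depleted-specific peak of 12 tags in intron 9 of 29. ABCB4, the phospholipid floppase of bile, had 2 common peaks of 15 and 21 tags. ABCG2 (BCRP) had 1 peak in each list, all in introns, with 16 tags in the common, 13 in the control-specific and 14 in the depleted-specific list. Between ABCG2's common and depleted-specific peaks lay 1695 bp.

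Of the 3 uptake transporters, 1 had a peak, beside 51.4% of all protein-coding genes. SLCO1B1, which takes up statins and bilirubin, had 1 common peak of 13 tags in intron 2 of 14. SLC10A1, the sodium-dependent bile acid importer NTCP, and SLCO1B3 had none. Of the pair that conjugates bile acids, SLC27A5, the bile acid CoA ligase, had 1 common peak of 15 tags in exon 7 of 10. BAAT, which then joins the bile acid to glycine or taurine, had 13 peaks, 7 of them common, 1 control-specific and 5 depleted-specific. Of its common peaks, the tallest had 28 tags (18.6 to 40.5) 28.8 kb downstream of the TSS and another of 23 tags lay in intron 3 of 3. Of the 13 peaks, 12 lay outside BAAT, 4 of them in introns of PLPPR1 and 1 in the 3′ untranslated part of MRPL50. The depleted-specific peaks had 11 to 13 tags, and 2 of the 5 lay within 1 kb of a common peak.

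Between the libraries, the control library listed 79 peaks at these genes and the NR2E3-depleted library 98. Depleted-specific peaks outnumbered control-specific peaks 1.53 times (0.986 to 2.39), against 1.57 times over all peaks. The lists began at different tag numbers, the control-specific list at 10 tags and the depleted-specific list at 8. With at least 14 tags in either list, 21 peaks stood against 19 and the ratio was 1.11. That cut is a score of 5.69 in the control-specific list but 7.10 in the depleted-specific list. With a score of at least 6, which is 15 control tags but 12 depleted tags, the ratio was 3.54. The ratio thus depended on where the lists were cut. The ratio over all peaks at these cuts is not given, so 1.11 and 3.54 cannot be set against 1.57. More depleted-specific than control-specific peaks were found at 14 genes (29.8%, 17.3% to 44.9%), against 28.4% of protein-coding genes. More control-specific ones were found at 8 (17.02%, 7.65% to 30.8%), against 9.36%, and equal numbers at 3 (6.38%), against 4.84%. The differences were largest at BAAT, CYP24A1 and CYP27A1, where 5 against 1, 13 against 9 and 6 against 2 peaks were listed. In the other direction the largest was 2 against 0 peaks, at SULT1A1. Common peaks were 54.4% of the genes' control-library peaks (42.8% to 65.7%), against 46.9% over all peaks, and 43.9% of their depleted-library peaks (33.9% to 54.3%), against 36.0%. Their common peaks had a median score of 7.32 against 6.51 over all common peaks, and 7 of the 43 reached a score of 10 (16.3%, 6.81% to 30.7%), against 9.08% of all common peaks. The control-specific peaks of these genes had no score above 6.91 and a median of 5.69, equal to that of the whole list. The median of the depleted-specific peaks was 6.59 (13 tags) against 6.08 (12 tags).

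Some specific peaks had a neighbour in the other library. Centres were within 1 kb of a peak of that library for 9 of 36 control-specific peaks (25.0%, 12.1% to 42.2%), against 21.7% of the whole list, and for 14 of 55 depleted-specific peaks (25.5%, 14.7% to 39.0%), against 14.8%.

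Chromosomes 2, 6, 14, 16, 17 and 20 held 7.99 or more control-specific peaks per Mb, and no other of chromosomes 1 to 22 and X held over 3.24. On these dense chromosomes lie 10 of the 47 genes, CYP27A1, CYP24A1, UGT1A1, SULT1A1, GSTA1, GSTA2, GSTA4, ABCB11, ABCC3 and SLC10A1. They held 67 of the 134 peaks (50%, 41.3% to 58.7%), against 70.4% of all peaks. Without CYP24A1 the share was 36.8%, below that interval. A peak was found for 8 of these 10 genes, against 71.6% of protein-coding genes on those chromosomes, and for 26 of the other 37 (70.3%, 53.0% to 84.1%), against 43.9%. The ratio of depleted-specific to control-specific peaks was 1.08 at the genes of the dense chromosomes (28 against 26 peaks, 0.609 to 1.91) and 2.70 at the others (27 against 10 peaks, 1.27 to 6.25). Over all peaks these ratios were 1.27 and 2.92. The part of chromosome density in the values for CYP24A1, ABCC3 and CYP27A1 was not tested.

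For the genes without a row, the windows around them were read as well. No listed peak of any name lay within the span or 10 kb of CYP2B6, CYP2C18, CYP2C19, CYP2D6, CYP4A11, CYP4F2, CYP4F3, CYP7B1, UGT1A1, NAT2, ADH1A or SLCO1B3. For SLC10A1, 2 peaks lay in this window, a common one of 13 tags at the promoter of SRSF5 and a depleted-specific one of 11 tags at that of LOC100289511, both named for those genes. The lists hold only peaks above the authors' threshold, so the absence of a row does not show closed chromatin.

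A further 131 genes of the same pathways were listed by hand, of which 130 are protein-coding in RefSeq. They had 308 peaks at 91 genes, 82 common, 76 control-specific and 150 depleted-specific. The ratio of specific peaks was 1.97 (1.49 to 2.64). A peak of any class was found for 70% of the 130 (61.3% to 77.7%), against 51.4% of all protein-coding genes. A promoter peak was found for 31 of the 130 (23.8%, 16.8% to 32.1%), against 28.0%. The common list had one for 15 genes (11.5%), against 14.5% of protein-coding genes. The control-specific list had one for 4 (3.08%), against 3.64%, and the depleted-specific list for 12 (9.23%), against 11.7%. The 4 control-specific ones were at ADH6, ALDH2, the main acetaldehyde dehydrogenase, AMACR, a racemase of bile acid side chain oxidation, and GSTA3, with 13 to 17 tags. The 12 depleted-specific ones had 10 to 17 tags. They were at AKR1D1, a reductase of bile acid synthesis, HSD17B4, a peroxisomal enzyme of side chain shortening, CYP2R1, a vitamin D hydroxylase, CYP3A43, the oxidases and dehydrogenases AOX1 and ALDH9A1, the carboxylesterase CES2, the transferases GSTO1, GSTZ1, SULT1C4 and SULT2B1, and the transporter SLCO4C1. CYP3A43, next to CYP3A4, had 6 peaks, of which 5 were depleted-specific.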

How the data were processed

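FAIRE-seq of HepG2 cells was analysed from 2 libraries, control and NR2E3-depleted, grouped by the treatment in the labels. Trimmomatic 0.39 was used for trimming and bowtie2 2.4.5 for alignment to hg38, with versions from the submitters' processing notes. HOMER then called the peaks at a q-value limit set by the authors. The study's methods mention input DNA, but not whether peaks were called against it. The rule that separates common from specific peaks is not given in the sources used here. The score of each deposited peak is a tag number scaled by the caller. The step between scores gave the score of 1 tag, and 100% of scores under 10 were whole multiples of it within rounding. If scores were scaled to the caller's default total, which is not stated, the depths would be 24.6 M and 19.7 M tags.

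Peaks were taken by nearest-gene name. Promoter means the authors' promoter-TSS class, and every other class is called distal. Gene spans and the 20052 protein-coding genes came from RefSeq (GRCh38.p14), and sequences from hg38. Promoter sequences of the RefSeq table (GRCh38.p14) matched hg38 at their coordinates for all 35116 compared. That table holds no entry for 13 of the 47 genes, and no sequence was printed for these. Shares have exact Clopper-Pearson intervals and ratios exact binomial intervals. No test was run between groups. Printed were promoter peaks in specific lists and then common ones by score, 8 in all. Described in full were genes with a promoter peak, the 5 with most peaks, those with the top peak of a list, and CYP7A1, CYP3A4, CYP2B6, UGT1A1, SLC10A1 and ABCB11. The genes, lists and tests were chosen with earlier results of these data known. The counting steps were tested on simulated data. Tables were handled with pandas 2.3.3, intervals computed with scipy 1.17.1 and numpy 2.4.6, and plots drawn with matplotlib 3.10.9 under Python 3.11.15.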

Additional observations from a re-analysis of the deposited data

How the results depend on the processing

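Of 63 comparisons of a value with an alternative, 50 left it within its interval or within 1.5 times its count and 13 moved it. Leaving out CYP24A1 and requiring at least 14 tags were chosen after the data were seen. With a score of at least 6, which is 15 tags in the control list but 12 in the depleted list, control-specific peaks numbered 13, the ratio of specific peaks was 3.54, promoter peaks were left at 6 genes, and those of the control-specific list at 1. With at least 14 tags in either list, control-specific peaks numbered 19, depleted-specific peaks 21, and the ratio was 1.11. That cut is a score of 5.69 in the control list but 7.10 in the depleted list. When a specific peak with a neighbour in the other library at 1000 bp or less was moved to the common list, that list held 66. Without the 6 dense chromosomes there were 10 control-specific and 27 depleted-specific peaks, a ratio of 2.70 and 6 genes with a promoter peak, from 37 genes. With peaks taken from the gene span plus 10 kb, 6 genes had a depleted-specific promoter peak, as promoters of neighbouring genes then count. Without CYP24A1, 36.8% of peaks lay on dense chromosomes. At 11 to 15 tags, a specific promoter peak is not a firm difference between libraries. No paired analysis was possible because the control and the NR2E3-depleted cells gave a single library each, and no replicate could be left out.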

Other observations

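Among receptors and signals that control bile acids, 7 of 8 listed genes had a peak, beside 51.4% of all protein-coding genes. They had 17 peaks in all, 3 common, 5 control-specific and 9 depleted-specific. Promoter peaks were common ones, at NR0B2, the corepressor SHP that lowers CYP7A1 transcription, with 18 control tags, and at KLB, a coreceptor of the hormone FGF19, with 19. NR1H4, the bile acid receptor FXR, had 3 control-specific and 2 depleted-specific peaks, and NR1I2, the drug receptor PXR, had 1 and 2. NR1I3 (CAR) had none. FGF19 had 2 depleted-specific peaks.

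Among 18 further transporters, ABCC1 had the most peaks, 11 common, 12 control-specific and 15 depleted-specific, and ABCC6, on the same dense chromosome 16 and with close copies nearby, had 3, 7 and 9. SLC51B, a subunit of the bile acid exporter of the basolateral membrane, had the tallest promoter peak of these pathway genes, a common one of 26 tags at -128 bp from the TSS. Its partner SLC51A had no peak.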
